A study of Mus musculus with 4 samples.

Results

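The amyloid precursor protein gene App, its paralogues Aplp1 and Aplp2, and 4 genes whose products cut them, Psen2, Bace1, Adam10 and Ncstn, were examined for binding of the transcription factor ATF4. These 7 of 21631 mouse coding genes were chosen by name, after the peaks in App had been seen, so the values below describe them and no test was made. For each gene, all ATF4 peaks were taken whose summit lay inside the gene body or within 50 kb of it. App met this rule in Opa1 knock-down neurons, with 2 peaks. Aplp1, Aplp2, Psen2, Bace1, Adam10 and Ncstn had no peak under it, and none of the 7 had any in control neurons. The name "amyloid pathway" therefore describes how the genes were picked, and the binding data at this distance concern App alone.

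The assay was ChIP-seq, in which DNA bound by ATF4 is pulled down with an antibody and sequenced. It was run in cortical neurons cultured from CD1 mouse embryos of day 15 or less than 1 day earlier. CD1 is an outbred stock. All cultures received cytosine arabinoside (2 µM), which stops dividing cells, and lentivirus on day 6, and were collected on day 11. Control neurons, labelled wild type, carried a control short hairpin RNA (shControl). The knock-down neurons carried one against Opa1 (shOpa1), which encodes a GTPase of the inner mitochondrial membrane. Each condition had 1 ATF4 library, so no difference between conditions has a replicate check. An IgG and an input library, both from control neurons, were not analysed here. The series title names mitochondrial stress as its subject. There were 93 control and 952 knock-down peaks, called by the authors, and sequencing depth is not stated in the labels. A peak list holds no expression values, so the level of Opa1, of App and of neuron or glia markers was not checked.

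App encodes a membrane protein of neurons that is cut in alternative ways. Adam10 is the main neuronal alpha-secretase, which cuts within the amyloid-beta stretch, and Bace1 is the beta-secretase, which cuts at its start. The gamma-secretase complex, which can hold the product of Psen2 as its catalytic subunit and has nicastrin (Ncstn) as a further subunit, then cuts inside the membrane. Aplp1 and Aplp2 are processed by related steps but lack the amyloid-beta stretch. ATF4 is the effector of the integrated stress response. It binds DNA as a dimer, often with a C/EBP protein, at C/EBP-ATF composite elements, and its best known targets serve amino acid supply and stress signalling.

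The DNA around the App start site is shown because neither App peak lay there. Chac1, a stress response gene with an ATF4 peak over its start site region in both lists, is set beside it to show what a match looks like. Both windows are from RefSeq (GRCm38.p6, which shares its coordinates with mm10) and run from 250 bases before to 50 bases after the start site, 5′ to 3′ along the gene. App is read on the minus strand at chr16:85173658-85173957, and Chac1 on the plus strand at chr2:119350992-119351291. Capitals mark matches, on either strand, to the composite core TGATGNAA or the cAMP response element TGACGTCA.
App: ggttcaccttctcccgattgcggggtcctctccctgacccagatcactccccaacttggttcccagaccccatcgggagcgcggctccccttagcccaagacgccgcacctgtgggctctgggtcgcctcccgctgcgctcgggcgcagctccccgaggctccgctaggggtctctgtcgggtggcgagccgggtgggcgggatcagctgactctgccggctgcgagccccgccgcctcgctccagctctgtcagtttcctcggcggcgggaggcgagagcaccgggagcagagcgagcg
Chac1: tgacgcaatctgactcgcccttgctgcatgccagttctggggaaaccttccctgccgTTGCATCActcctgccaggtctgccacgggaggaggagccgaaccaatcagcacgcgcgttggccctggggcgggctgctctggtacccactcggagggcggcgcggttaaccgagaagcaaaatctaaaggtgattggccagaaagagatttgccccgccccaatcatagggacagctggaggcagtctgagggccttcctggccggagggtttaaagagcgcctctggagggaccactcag

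The App window held no match to either motif, and 71% of its bases were G or C, against a median of 52.7% over all windows. The Chac1 window held 1 match to the core, on the opposite strand, which began 193 bases before the start site. Windows were found for 6 of the 7 genes, 7 windows in all because Psen2 has a pair of start sites, and none of the 7 windows held either motif. Bace1 was not in the table. Over all 32851 windows, 3.97% held TGATGNAA and 1.79% held TGACGTCA, so most windows hold neither. The core was present in 30 of the 99 windows that overlapped a knock-down peak (30.3%) and in 10 of the 19 that overlapped a control peak (52.6%). TGACGTCA was in none of either set. These matches are letters in a window and not measured binding sites.

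Both App peaks lay deep inside the gene. App spans chr16:84952666-85175255 (mm10), 222590 bp. The first peak, at chr16:85110058-85110907, had its summit at position 85110483, which is 63224 bp downstream of the start site and 64772 bp from the nearer end of the annotated gene. Its fold enrichment over the caller's background, the authors' value, was 16.73, with 68 tags (95% Poisson interval 52.8 to 86.2). The second, at chr16:85075000-85075763, had its summit at position 85075382, which is 98325 bp downstream of the start site. Its fold was 13.86, with 60 tags (45.8 to 77.2). The 2 tag intervals overlap, and counting error is all that they cover. Whether the peaks differ in tags was not tested. The summits were 35101 bp apart. Each deposited summit here is the middle of its interval, so it is not shown to be the point of strongest signal. In the control list no peak lay in App, and the nearest was 2301 kb away. The edge of the nearest knock-down peak was 62.8 kb from the start site window. Exons and introns were not told apart here.

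**Figure D1:**
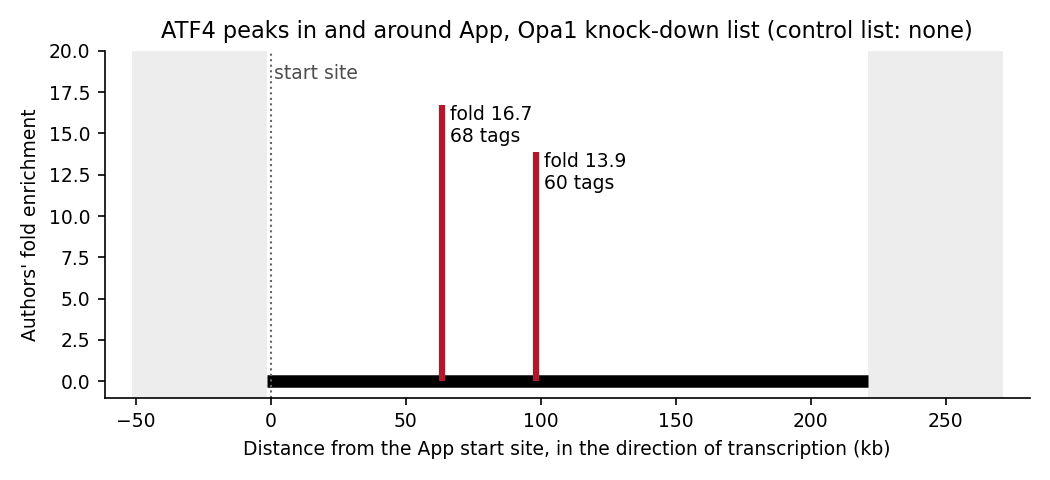
ATF4 peaks of the Opa1 knock-down list along App. The horizontal axis is the distance in kb from the start site in the direction of transcription, the black bar is the gene body, grey bands are the 50 kb on each side, and each red line is a peak summit with its height at the authors' fold (16.73 and 13.86). No summit lies at the start site or in the grey bands.

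Within the knock-down list the App peaks stood in the upper part by every deposited measure. The fold of the first was higher than that of 93.5% of the 952 peaks, and the fold of the second higher than 88.8%, where the list's median was 8.13 and its highest value 52.11. By tags they exceeded 94.5% and 92.1% of peaks (median 29). They were also wide, at 850 and 764 bp, wider than 97.6% and 91.8% of peaks. On chromosome 16, which carried 35 knock-down peaks, they ranked 3 and 4 by fold, and the other peaks there had a median fold of 7.95. The next knock-down peak on one side was 2424 kb away, with a fold of 18.64 and Ncam2, a neural adhesion molecule gene, as its nearest coding gene at 1027 kb. On the other side it was 983 kb away, with a fold of 9.56 and Adamts5, an extracellular protease gene, nearest at 192 kb. From a knock-down peak to its nearest neighbour on either side, the median distance was 772 kb. For each App peak that neighbour is the other App peak, so these gaps to a single side cannot be set against that median. A neighbour at 35101 bp or less was found for 75 of the 952 peaks (7.88%), the App pair included.

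Strong knock-down peaks often had a partner in the control list, and those in App did not. Of the 107 knock-down peaks with a fold of at least 13.86, 56 shared 1 bp or more with a control peak (52.3%, with a 95% Clopper-Pearson interval from 42.5 to 62.1). The App peaks were among the 51 that overlapped none. The cut is the fold of the lower App peak, and the interval covers counting error only, not the spread between libraries. Of the 845 peaks with lower folds, 24 overlapped a control peak (2.84%). Between 13.86 and 16.73 lay 48 other peaks, of which 14 had a control partner. Most other peaks in this range thus had none, like those in App. Control folds at the 14 ran from 4.86 to 9.41 (median 6.9). The control list reached down to a fold of 3.71 and to 15 tags. A site absent from that list is not shown to be unbound, since neither depth nor calling threshold is known here.

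**Figure D2:**
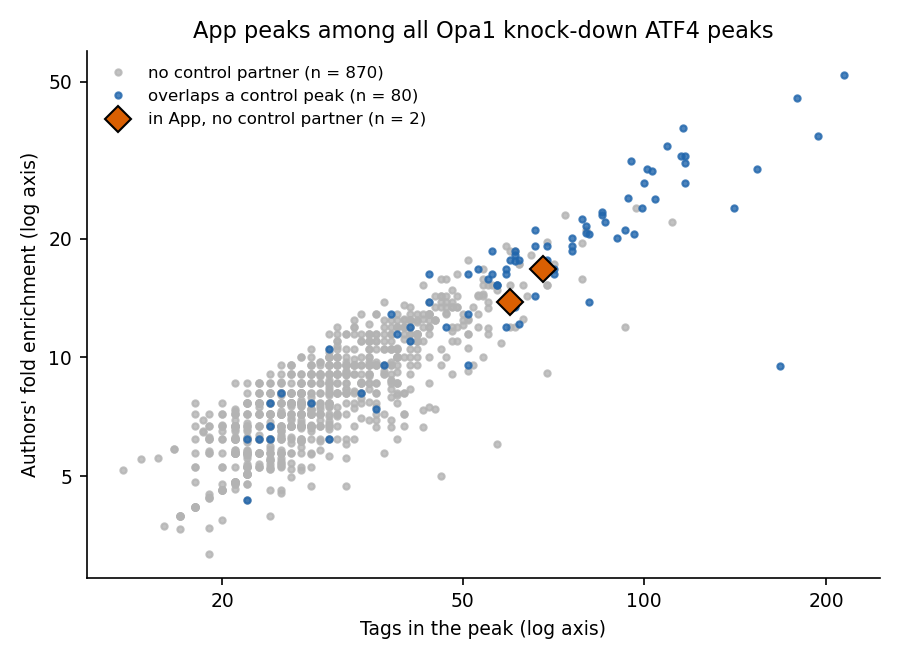
Fold and tags of all 952 Opa1 knock-down peaks, on log axes. Blue points overlap a control peak, grey points do not, and the orange diamonds are the App peaks (68 tags at fold 16.73 and 60 tags at fold 13.86), which lie where blue and grey points mix.

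Among the 872 knock-down peaks with no control partner, the first App peak was 16th by fold, level with 1 other peak at 16.73, and 14th by tags. The second was 45th by fold, as 1 of 7 peaks level at 13.86, and 23rd by tags. Just above the first stood peaks at a fold of 17.21, among them a site 141 bp from Psat1, an enzyme of serine synthesis, and a site in Eif4ebp1, a repressor of cap-dependent translation. The others at 17.21 lay deep inside Cadm2 and, between genes, 39772 bp from Mrpl1. The peak level with the first App peak also lay between genes, 37881 bp from Gm19410. The Psat1 peak had 69 tags and the Eif4ebp1 peak 62 (95% Poisson intervals 53.7 to 87.3 and 47.5 to 79.5). Their intervals overlap those of both App peaks. Psat1, Eif4ebp1, Mrpl1 and Gm19410 were named after their values were seen. Unlike the Psat1 and Eif4ebp1 sites, the App summits lay at least 50 kb inside their gene. In the knock-down list 175 peaks did so, in 149 coding genes, with a median fold of 8.13, and 10 of them had a control partner. By fold the App peaks were 9th and 15th of these 175, and 3rd and 7th of the 165 without a partner. The deep peaks without a partner that stood above the first App peak lay in Abr (fold 18.64) and Cadm2, a synaptic adhesion molecule (17.21). Both were also named after their values were seen.

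A gene of this length is more often close to a peak than most. Of all coding genes, 6.3% had a knock-down summit inside or within 50 kb and 0.938% had a control summit. The 7 amyloid genes gave 1 and 0 beside those shares, and nothing is read from them because the rule used these lists. App is longer than 96.1% of coding genes. Among the 853 coding genes at least as long as App, itself included, 18.8% had a knock-down summit inside or within 50 kb. A pair of summits inside the same gene was rarer. At least 2 knock-down summits lay inside 37 coding genes (0.171% of all), and 24 of these were at least as long as App (2.81% of the 853). The highest number in any coding gene was 3.

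App was 1 of 33 coding genes with 2 or more knock-down summits inside and no control summit inside or within 50 kb, and the lower of its top 2 folds, 13.86, was the highest such value among them. That class was shaped on the pattern of App itself and leaves out genes with a control summit, so this place is a description only. The genes most like App were taken as those with the smallest distance in the log2 folds of their 2 highest peaks, over 1 library. Psd3, an exchange factor for ARF6, was nearest, with folds of 13.86 and 13.39 at summits 16.3 kb apart (distance 0.28). Gars, the glycyl-tRNA synthetase gene, followed with 11.95 and 11.47 (distance 0.56). Aldh1l2, a mitochondrial folate enzyme, and Pde4d, a cAMP phosphodiesterase, each had 11.47 at both peaks (distance 0.61). Cadm2 had 17.21 and 9.08 (distance 0.61). The spacing differed widely, from 0.965 kb in Gars and 2.56 kb in Aldh1l2 to 26.4 kb in Cadm2 and 189 kb in Pde4d. The likeness is in fold alone. App had 68 and 60 tags, Psd3 37 and 46, and Gars 39 and 36. Aldh1l2 had 37 and 35, Pde4d 35 and 30, and Cadm2 71 and 32. Gars (41.5 kb) and Aldh1l2 (46.7 kb) are too short to hold a summit 50 kb inside. With 1 library per condition these likenesses have no replicate check.

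**Figure D3:**
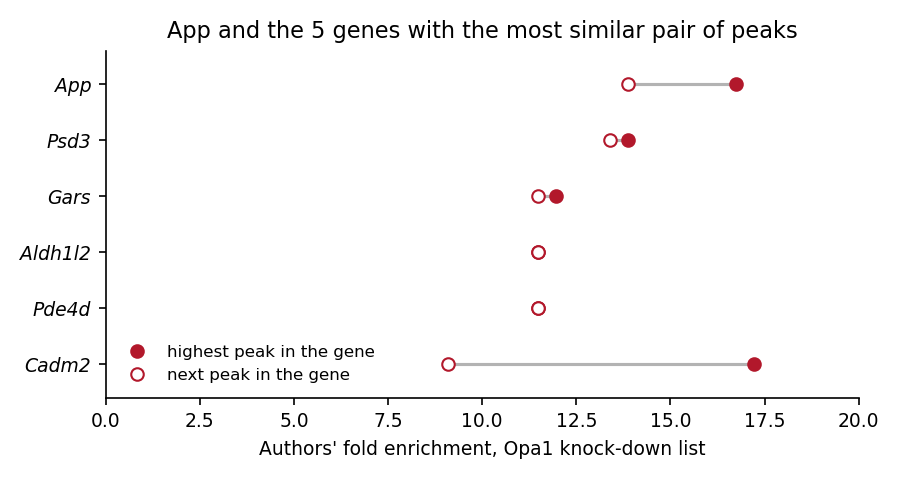
The 2 highest folds in App and in the 5 genes with the most similar pair of Opa1 knock-down peaks. Filled circles are the higher peak of each gene and open circles the next (coinciding in Aldh1l2 and Pde4d at 11.47), and App has the highest open circle, at 13.86.

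The paralogues carried no peak within 50 kb. Aplp2, which is widely expressed, spans 62292 bp on chromosome 9 and its nearest knock-down summit was 78617 bp away. Its fold was 8.13, with 28 tags (95% Poisson interval 18.6 to 40.5), and it lay inside Prdm10, a zinc finger gene, 14355 bp from its nearer end. Aplp1, whose expression is largely neuronal, spans 10603 bp on chromosome 7 and had the same nearest site in both lists. This was the site in Cebpg, a partner of ATF4, about 4611 kb away, where the control fold was 8.78 and the knock-down fold 21.03. In the knock-down list 92.8% of coding genes lay nearer to a summit than Aplp1 did, against 8.52% for Aplp2. In the control list, with fewer peaks, the shares were 35.0% for Aplp1 and 44.1% for Aplp2.

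The secretase genes had none either. The summit nearest to Adam10, on chromosome 9, was a knock-down summit 71719 bp away, at a fold of 7.17 with 25 tags (16.2 to 36.9), inside Lipc, the hepatic lipase gene. For Bace1, also on chromosome 9, it was 122851 bp away, with a fold of 9.08 and 37 tags (26.1 to 51.0), inside Pafah1b2, a subunit of a platelet-activating factor acetylhydrolase. Adam10 and Aplp2 were thus the genes just outside the 50 kb limit, and App, at 0, was the only one of the 7 inside it. The peaks near Aplp2, Adam10 and Bace1 are separate sites, each nearer to another gene than to the gene named here. Their folds lay close to the list's median of 8.13, and none overlapped a control peak. The gamma-secretase genes on chromosome 1 were farther off. The nearest knock-down summit was 849 kb from Psen2, inside Smyd3 (fold 8.13, 27 tags), and 595 kb from Ncstn, with F11r, a tight junction protein gene, as its nearest coding gene (fold 9.08, 28 tags). The median distance over all coding genes was 909 kb, so Psen2 and Ncstn were a little nearer than a typical gene. In the control list the 7 genes lay 2301 kb (App) to 11400 kb (Adam10) from the nearest summit, where the median over the coding genes on chromosomes with a control peak was 7433 kb.

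**Figure D4:**
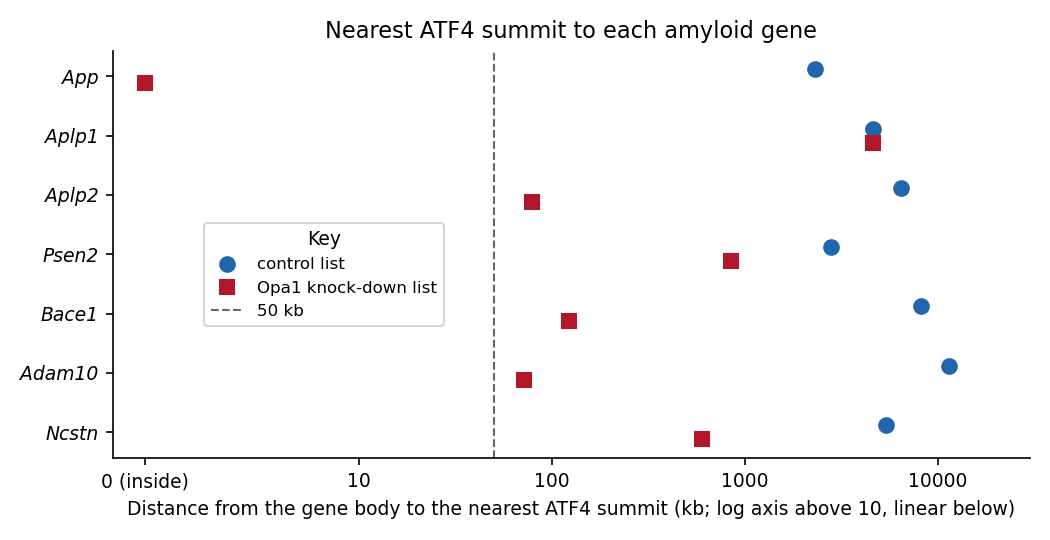
Distance in kb from each of the 7 gene bodies to the nearest ATF4 summit in the control list (blue circles) and the Opa1 knock-down list (red squares), on an axis that is linear below 10 kb and logarithmic above. The App knock-down summit is at 0, inside the gene, and every other point lies to the right of the dashed 50 kb line.

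A further 48 genes of amyloid precursor biology were listed by role, and 4 had a knock-down summit inside or within 50 kb (8.33%) beside 6.3% of all coding genes. In the control list 1 did (2.08%) beside 0.938%. Both shares rest on few genes and were not tested, so no binding particular to the list is read from them. No summit of either list lay inside any of the 48 genes, where 2.02% of coding genes held one in the knock-down list. Psenen, Aph1a, Aph1b and Aph1c, which encode further gamma-secretase subunits or their homologues, had no summit within 50 kb. The same held for the 5 other sheddase genes, the 6 genes of clearance and carriers and the 7 modulators of processing.

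The 4 listed genes with a summit were adaptors, a receptor and a secretase substrate. Apbb2, an adaptor that binds the cytoplasmic tail of the precursor, had a knock-down peak at chr5:66620098-66620835, 1403 bp outside the gene and 1650 bp from its nearest start site, at a fold of 11.47 with 44 tags (95% Poisson interval 32.0 to 59.1). Apbb2 was the nearest coding gene to that peak. Apba3, another adaptor, had a summit 19 bp outside the gene, but it lay inside Mrpl54, a mitochondrial ribosomal protein gene, 10 bp from its end and 1256 bp from the Apba3 start site. Its fold was 4.83 with 21 tags (13.0 to 32.1), near the bottom of the list. The Notch1 peak (fold 6.69, 24 tags) was 12297 bp from Notch1, a gamma-secretase substrate, and inside Sec16a, 688 bp from its end. Lrp1, an endocytic receptor that binds the precursor, had 2 summits within 50 kb in both lists, each inside another gene. The site in Shmt2, a mitochondrial serine hydroxymethyltransferase gene, was 16180 bp away in the control list and had folds of 11.92 (control) and 20.08 (knock-down). The site in Ndufa4l2 was 25965 bp away, with 7.53 and 12.91. Over all 80 shared control peaks the knock-down fold was the higher at 75, with a median ratio of 2.26. Higher knock-down folds at the Shmt2, Ndufa4l2 and Cebpg sites are thus not particular to them. The lists are separate calls of unknown settings and depth, and their folds are not known to share a scale. The ratio is therefore not shown to be stronger binding. Apbb2 was therefore the only 1 of the 48 that was itself the nearest coding gene to its peak.

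Widening the window to 100 kb brought in Adam10 and Aplp2, giving 3 of 7 amyloid genes in the knock-down list beside 10.1% of coding genes. As described above, both added peaks lie inside other genes.

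**Figure D5:**
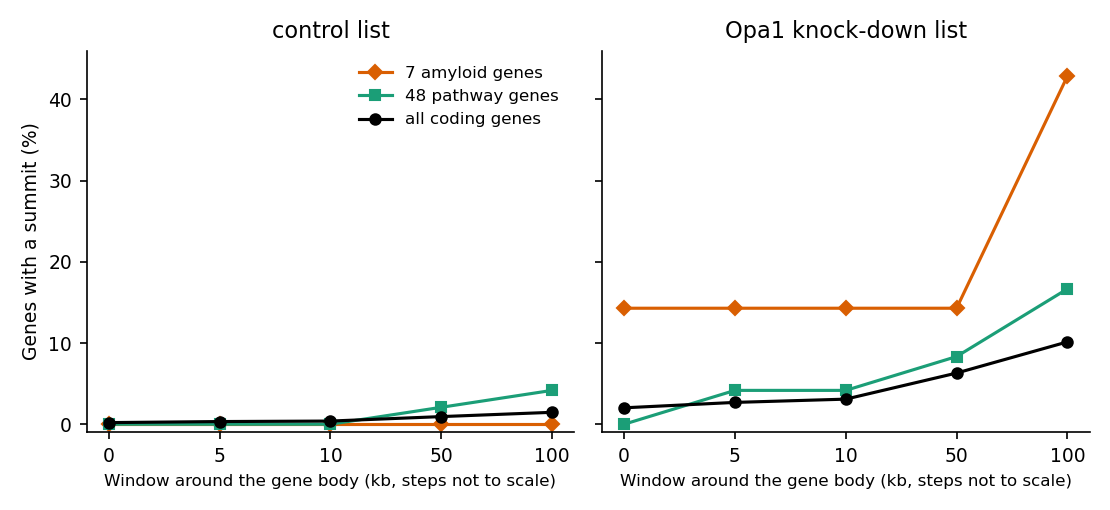
Percentage of genes with an ATF4 summit inside or within 0, 5, 10, 50 and 100 kb, for the 7 amyloid genes, the 48 further pathway genes and all 21631 coding genes, by peak list. In the knock-down list the 7 genes stay at 14.3% (App alone) up to 50 kb and reach 42.9% (3 of 7) at 100 kb, and each step is a single gene or a pair of genes.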

How the data were processed

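The authors deposited 1 ATF4 peak list per condition, tied to its library by the hairpin in its name. Peaks were called with MACS2 on build mm10, per the series' design text and the submitters' processing notes. The aligner, the control library, thresholds and depth are not stated in the labels. Each peak has the authors' deposited score, fold (a ratio to the caller's background), length, summit and tag number, in no shared unit. The score has 2 forms: the length fits the interval in 84 (control) and 886 (knock-down) peaks, and in 9 and 66 it is shorter. In the knock-down list, peaks of the second form also carry folds with more decimals, and some have tag numbers that are not whole. Ranks, medians and lowest values given here take both forms together. Both App peaks are of the first form and the Apba3 peak of the second.

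Distances from summits to gene bodies used 21631 RefSeq coding genes (GRCm38.p6) on the autosomes and X. Start sites came from the RefSeq promoter windows, and 48 of 48 further genes matched by symbol. Some listed genes are not reported here by name. Peak sequences were not used here, so motifs were searched in promoter windows alone. Tags have exact Poisson and shares exact Clopper-Pearson intervals at 95%, for counting error only. No test was made, with 1 library per condition. The distance step was tested on simulated summits. The 7 genes and the lists were chosen with earlier results of these data known. Genes named were the 7, listed genes with a summit within 50 kb, the genes nearest to or around their peaks, and up to 5 genes most like App. Chac1 was named as an example with its peaks known. Ncam2 and Adamts5 were named as nearest to the peaks on each side of those in App. Others are marked where named. Computation used scipy 1.17.1 and pandas 2.3.3 (numpy 2.4.6) under Python 3.11.15, and plots matplotlib 3.10.9.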

Additional observations from a re-analysis of the deposited data

How the results depend on the processing

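Of 47 alternative values, 32 stayed within 1.5 times the reported count, or within the 95% interval of the reported share, and 15 moved. The 7 genes gave 0 in the control list under all 10 alternatives, and 1 (App) in the knock-down list under 9 of them, with 3 at 100 kb (beside 10.1% of coding genes). The control 0 was fixed beforehand, since no control summit lay closer than 2301 kb to any of the 7. The knock-down 1 was also fixed under each of the 9 alternatives other than 100 kb. Both App summits lie inside the gene, with folds of 16.73 and 13.86. Both peaks are of the first score form, have App as their nearest gene and outscore 93.9% and 92.4% of peaks. The next of the 7 genes, Adam10, had its nearest summit 71719 bp away. Counting by midpoint or peak edge could not bring that within 50 kb. The stricter core TGATGCAA is a form of TGATGNAA, which was absent from the 7 windows, so its 0 was fixed as well. The 32 values that stayed include these fixed ones, which are no check of the result. For the 48 listed genes in the knock-down list, 4 became 0 with gene bodies alone, beside 2.02% of all coding genes. The count was 2 at 5 kb and at 10 kb (4.17%, beside 2.69% and 3.09%) and 8 at 100 kb (16.7%, beside 10.1%). It was 2 in the higher-scoring part, 2 at a fold of at least 10 and 1 when a peak counted for its nearest gene alone. For these last settings the share over all coding genes was not computed. In the control list 1 became 0 with gene bodies alone, at 5 kb and at 10 kb, beside 0.199%, 0.328% and 0.388% of coding genes. It was also 0 by the nearest gene, and 2 at 100 kb (4.17%, beside 1.47%). Fewer peaks or a different reach enter by construction. No control peak overlapped an App peak by 1 bp, by a reciprocal 50% or with summits within 200 bp. With the nearest control summit 2301 kb from App, none of these rules could give another answer. The second App peak exceeded 88.8% of peaks by fold, 92.4% by score and 92.1% by tags; the cause was not tested. Motif alternatives at summits were not run, since peak sequences were not used here. No paired analysis was possible because there is 1 library per condition. Depth is unknown, so no floor can be given for sites missing from the control list.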
